A study of Mus musculus with 18 samples.

Results

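Ltf, Lpo, Car6, Pip, Dmbt1, Lyz1 and Bpifa2 encode secreted antimicrobial and defence proteins of exocrine glands. They were chosen by their symbols and not by a rule on a measured value, though with earlier results of these data known. All 7 were found among the 54232 genes of the count table. The values come from bulk RNA-seq of the LG, with 1 gland from each of 18 male mice and 3 mice in each of 6 groups. The control strain was BALB/cJ (BALB/c) and the diseased strain was NOD.B10Sn-H2b/J (NOD.H-2b), a model of Sjögren's syndrome that carries the H-2b haplotype on the NOD background, and both were sampled at 2 (2M), 4 (4M) and 6 months (6M). BALB/c is an inbred strain of another origin, so strain background and disease cannot be told apart. Replicates were different mice. The totals ranged from 49480781 to 103936830 counts per mouse.

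The LG makes the watery layer of the tear film. Its acinar cells release proteins by exocytosis, and its ducts adjust the fluid on the way to the ocular surface. Tear proteins deprive microbes of iron (lactoferrin, Ltf), oxidize thiocyanate with hydrogen peroxide into a short-lived microbicidal product (lactoperoxidase, Lpo), cut bacterial cell walls (lysozyme, Lyz1) or bind bacteria (Dmbt1 and Pip). Car6 is the secreted member of the carbonic anhydrases, which interconvert carbon dioxide and bicarbonate, and Bpifa2 is the parotid secretory protein of the BPI fold family.

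Per kilobase of principal transcript, Pip was the most abundant of the 7 in every group and Bpifa2 the least (CPM per kb, where CPM are TMM-scaled). In 2M BALB/c LGs, the levels were 23784 ± 712 (SD, n = 3 here and below) for Pip, 2946 ± 50.2 for Lpo, 828 ± 56.9 for Car6, 213 ± 2.31 for Ltf, 46.5 ± 9.62 for Dmbt1 and 0.367 ± 0.0624 for Lyz1. In 2M NOD.H-2b LGs, Ltf stood at 290.4 ± 30.4 and Car6 at 108 ± 9.08. The order of Car6 and Ltf was therefore opposite in the strains, with Car6 above Ltf in all 9 BALB/c mice and below it in all 9 NOD.H-2b mice. No 2 neighbours in the order overlapped in any of the 6 groups. The 7 genes together took 2.22% to 2.33% of all counts in 2M BALB/c LGs and 2.18% to 2.37% in 2M NOD.H-2b LGs, most of it Pip and Lpo. By 6M, the share lay between 2.01% and 2.31% for BALB/c, but between 1.47% and 1.73% for NOD.H-2b. TMM scaling changed the picture at 2M. In CPM, the 7 genes then summed to 24264 to 25195 in BALB/c and 20557 to 22074 in NOD.H-2b, with no overlap. At 6M, their sum was 22379 to 27064 CPM in BALB/c and 11988 to 15454.5 CPM in NOD.H-2b.

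**Figure D1:**
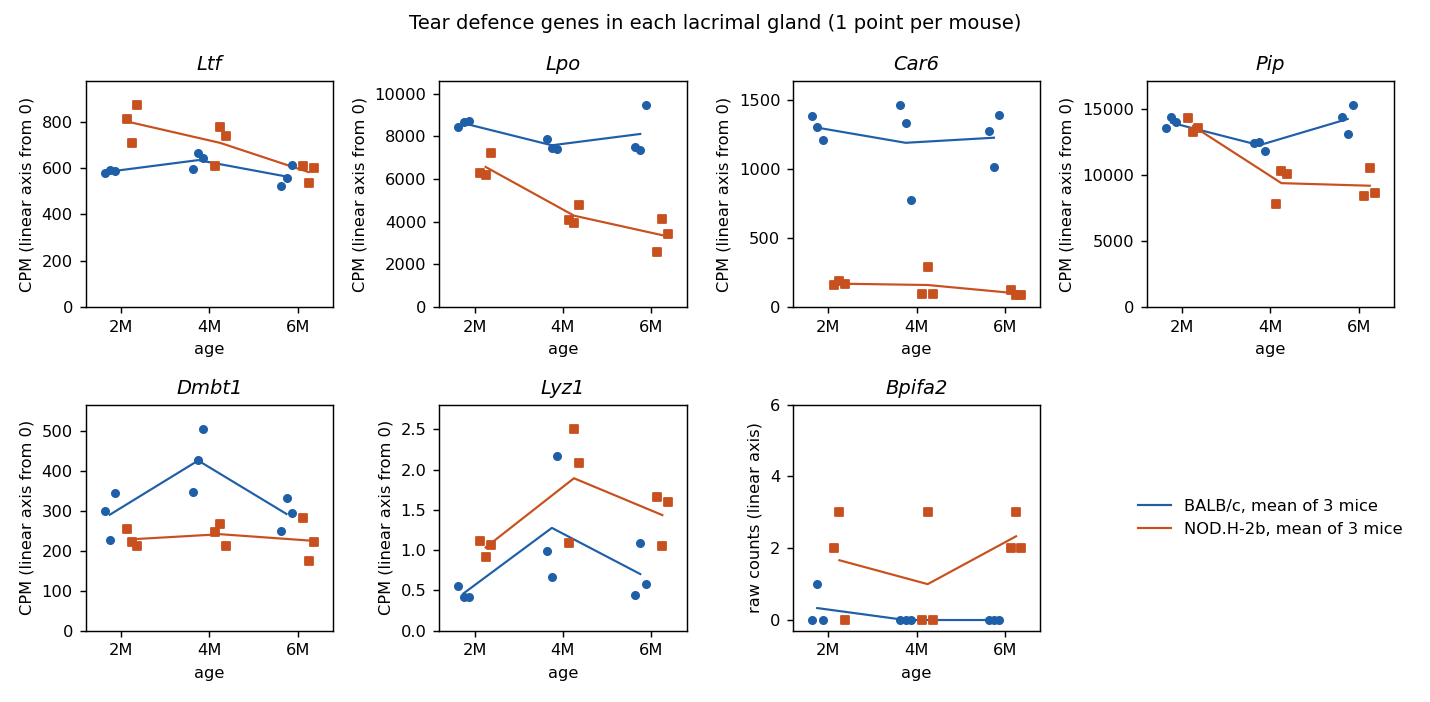
Level of each gene in each mouse, as CPM for 6 genes and raw counts for Bpifa2, on linear axes against age in months. Each point is 1 mouse, blue circles are BALB/c, orange squares are NOD.H-2b, and lines join the means of 3 mice. Car6 was lower in every NOD.H-2b mouse than in every BALB/c mouse, the Lpo groups lay farther apart at 6M than at 2M, and Bpifa2 stayed at 3 counts or fewer.

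The first question was which of these genes differed between the strains at each age. With edgeR's quasi-likelihood test and Benjamini-Hochberg adjustment over all genes tested (called at an adjusted p under 0.05), 6 of the 7 genes could be tested and Bpifa2 was removed by the filter on low counts. At 2M, Ltf and Lyz1 were higher in NOD.H-2b (2 of 6, where 22.5% of all genes tested were called higher), and Lpo and Car6 were lower (2 of 6, where 17.2% were called lower). At 4M, Lpo, Car6, Pip and Dmbt1 were lower (4 of 6, against 19.2% of all genes). At that age none of the 6 was called higher (against 23.4% of all genes), with an unadjusted p under 0.05 only for the 4 lower genes and the same 4 genes called by DESeq2. At 6M, Lyz1 was higher (1 of 6, against 28.6%), and Lpo, Car6 and Pip were lower (3 of 6, against 25.8%). Averaged over the 3 ages in a fit of all 18 mice, Ltf and Lyz1 were higher (2 of 6, against 32.5%), and Lpo, Car6, Pip and Dmbt1 were lower (4 of 6, against 33.1%). In order of age, the 6 genes had median log2 fold changes of -0.14, -0.60 and -0.47, where all genes tested had 0.0099, 0.0003 and -0.0041. With 6 genes and backgrounds this large, these shares are read as a description of the 6 genes. In bulk RNA, fewer cells of a type and less RNA per cell cannot be told apart.

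Car6 (chr4:150187015-150201332, minus strand, GRCm38) showed the widest gap between the strains among the 6 genes. At 2M, its level was 1384, 1303 and 1206 CPM in BALB/c and 158, 185 and 165 CPM in NOD.H-2b. No NOD.H-2b mouse came near the lowest BALB/c mouse, and Car6 was 7.44-fold lower (log2 fold change -2.89 ± 0.077 SE, adjusted p = 1.14e-09). At 4M, the BALB/c mice had 1459, 1333 and 771 CPM and the NOD.H-2b mice 92.2, 290.4 and 96.2 CPM. The groups again did not overlap, although BALB/c replicate 3 was low and NOD.H-2b replicate 2 high for their groups, and the SE was wide (-2.89 ± 0.63, adjusted p = 0.0221). This call rests on the spread within 3 mice, since it ended when BALB/c replicate 1, BALB/c replicate 2, NOD.H-2b replicate 1 or NOD.H-2b replicate 3 was left out (adjusted p from 0.0559 to 0.0769), with log2 fold changes between -2.81 and -2.61. At 6M, the levels were 1271, 1013 and 1389 CPM in BALB/c against 121, 89.1 and 89.7 CPM in NOD.H-2b, an 11.97-fold difference (-3.58 ± 0.17, adjusted p = 2.8e-07). Within NOD.H-2b, Car6 fell by 0.78 ± 0.13 on the log2 scale from 2M to 6M (adjusted p = 0.00264), but a fit of all 18 mice gave a fall of 0.76 with an adjusted p of 0.129. From 2M to 4M the difference was -0.087 ± 0.50 (adjusted p = 0.928), and it was -0.85 without NOD.H-2b 4M replicate 2 (adjusted p = 0.00909). The age differences of Car6 in BALB/c lay between -0.12 and 0.033 and were not called.

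Lpo (chr11:87806428-87828289, minus strand) was lower in NOD.H-2b at every age. At 2M, its level was 8451, 8689 and 8719.8 CPM in BALB/c and 6288, 6185 and 7241 CPM in NOD.H-2b, with no overlap (-0.35 ± 0.066, adjusted p = 0.00135). As a share of all counts, without TMM, Lpo did overlap at 2M (0.7746% to 0.8023% in BALB/c and 0.6547% to 0.7770% in NOD.H-2b). At 4M, it was 7883, 7479 and 7399 CPM in BALB/c against 4091, 3963 and 4810.1 CPM in NOD.H-2b (-0.82 ± 0.097, adjusted p = 0.000139). At 6M, the BALB/c mice had 7518, 7373 and 9464 CPM and the NOD.H-2b mice 2563, 4138 and 3412 CPM (-1.23 ± 0.19, adjusted p = 0.000432). The ratio of the group means, NOD.H-2b over BALB/c, was thus 0.762, 0.565 and 0.415 at the 3 ages. Lpo kept its call at each age when any 1 mouse was left out. The change of the strain difference from 2M to 6M was itself called (-0.88 ± 0.19, adjusted p = 0.00651), as was the fall within NOD.H-2b from 2M to 4M (-0.62 ± 0.10, adjusted p = 0.00958) and from 2M to 6M (-0.98 ± 0.19, adjusted p = 0.00428). In BALB/c, the difference from 2M to 6M was -0.092 ± 0.089 and was not called, but without BALB/c 6M replicate 3 it was -0.22 with an adjusted p of 0.00206.

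Pip (chr6:41847535-41852065, plus strand), the gene of prolactin-inducible protein, which is made by many exocrine glands, did not separate the strains at the first age on the TMM scale. At 2M, it stood at 13551, 14386 and 14017 CPM in BALB/c and 14324, 13258.5 and 13584 CPM in NOD.H-2b, with overlap (0.015 ± 0.051, adjusted p = 0.851). As a share of all counts, without TMM, Pip at 2M was 1.24% to 1.33% in BALB/c and 1.40% to 1.53% in NOD.H-2b. At 4M, the BALB/c mice had 12477, 12499 and 11836 CPM and the NOD.H-2b mice 7805, 10305 and 10079 CPM. The groups no longer overlapped, with NOD.H-2b replicate 1 the lowest, and the difference was -0.38 ± 0.11 (adjusted p = 0.0224). It lost its call without BALB/c replicate 1 or 2 (adjusted p = 0.0904 and 0.085). At 6M, the levels were 14374, 13105 and 15301 CPM against 8413, 10514.5 and 8674 CPM (-0.60 ± 0.15, adjusted p = 0.0079), a call kept without any 1 mouse. The strain difference changed from 2M to 6M (-0.60 ± 0.15, adjusted p = 0.0119). Within NOD.H-2b, Pip fell from 2M to 4M (-0.55 ± 0.11, adjusted p = 0.0167) and was lower at 6M than at 2M (-0.59 ± 0.15, adjusted p = 0.0136). The fall to 4M was not called without NOD.H-2b 2M replicate 1 or 3 (adjusted p = 0.0531 and 0.0702), and the fall to 6M without either of these or 6M replicate 3 (adjusted p = 0.0581, 0.0579 and 0.0583).

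Ltf (chr9:111019271-111042767, plus strand) was higher in young NOD.H-2b LGs, and its strain difference at the later ages depended on the scale. At 2M, it stood at 578, 591 and 586 CPM in BALB/c and 811, 706 and 871 CPM in NOD.H-2b, 1.40-fold higher with no overlap (0.49 ± 0.069, adjusted p = 0.000239). At 4M, the levels were 596, 664 and 644 CPM against 609, 778 and 739.9 CPM. These groups overlapped through NOD.H-2b replicate 1, and the difference was 0.17 ± 0.098 (adjusted p = 0.209). Without that mouse it was 0.26 with an adjusted p of 0.0185. At 6M, BALB/c had 521, 556 and 614 CPM and NOD.H-2b 609, 538 and 602 CPM, and the difference was 0.083 ± 0.10 (adjusted p = 0.506). As a share of all counts, without TMM, Ltf at 4M was 0.0548% to 0.0643% in BALB/c and 0.0669% to 0.0804% in NOD.H-2b. At 6M this share was 0.0467% to 0.0525% and 0.0601% to 0.0790%, with no overlap at either age. Within NOD.H-2b, Ltf fell by 0.47 ± 0.11 on the log2 scale from 2M to 6M (adjusted p = 0.0104), a call lost without NOD.H-2b 2M replicate 3 (adjusted p = 0.065). The strain difference changed from 2M to 6M by -0.40 ± 0.13 with an adjusted p of 0.048, close to the threshold. That call was lost in 9 of the 18 fits that left out 1 mouse (values from -0.49 to -0.33, adjusted p from 0.021 to 0.123).

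Ltf is also a granule gene of neutrophils. Of 14 neutrophil markers, between 6 and 11 had at most 3 counts in every mouse of a group, and Ngp, Camp, Ly6g, Elane and Stfa2l1 were among them in all 6 groups. Over all ages, the summed level of the 14 markers was 0.707 to 2.45 CPM in BALB/c and 2.14 to 7.21 CPM in NOD.H-2b. Within each age, the strains did not overlap. The highest BALB/c sums were 1.06, 2.45 and 2.02 CPM in order of age. The lowest NOD.H-2b sums were 2.14, 6.37 and 4.89 CPM. The part of neutrophils in the level of Ltf was not tested. Ductal cells are another known site of Ltf. The 12 ductal markers summed at 2M to 333 to 367 CPM in BALB/c LGs and 386 to 455 CPM in those of NOD.H-2b, with no overlap, and to 292 to 371 CPM and 253 to 265 CPM at 6M. Of the 8 tested at 2M, 4 were higher and 2 lower (against 22.5% and 17.2% of all genes). Of the 9 tested at the later ages, 3 were lower at 4M (against 19.2%), and 2 were higher and 3 lower at 6M (against 28.6% and 25.8%). Scnn1b and Kcne1 had at most 3 counts in every mouse, and the part of ductal cells in the level of Ltf was not tested.

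Dmbt1 (chr7:131032053-131121630, plus strand) encodes a secreted scavenger receptor glycoprotein that binds bacteria. At 2M, its level was 299.9, 226 and 345 CPM in BALB/c and 253, 221 and 212 CPM in NOD.H-2b, with overlap (-0.30 ± 0.17, adjusted p = 0.223). At 4M, it was 346, 427 and 505 CPM in BALB/c against 246, 267 and 212 CPM in NOD.H-2b. Every BALB/c mouse was above every NOD.H-2b mouse, and Dmbt1 was 1.76-fold lower in NOD.H-2b (-0.81 ± 0.14, adjusted p = 0.00252), with the call kept without any 1 mouse. At 6M, BALB/c had 250.1, 331 and 295 CPM and NOD.H-2b 281, 174 and 222 CPM (-0.34 ± 0.17, adjusted p = 0.123). The strains differed at 2M when BALB/c replicate 2 was left out (-0.46, adjusted p = 0.00343) and at 6M when NOD.H-2b replicate 1 was left out (-0.51, adjusted p = 0.0264). Averaged over the ages, the difference was -0.51 ± 0.11 (adjusted p = 0.00094). In the main fits, Dmbt1 was called in no comparison of ages within a strain. Alternative settings called it in BALB/c, from 2M to 4M when scaled to epithelial genes (0.27, adjusted p = 0.0277). With a replicate block it was called from 4M to 6M (-0.55, adjusted p = 0.0362). The mean of Dmbt1 in 4M BALB/c, 426 ± 79.4 CPM, was the highest of the 6 groups. Of the 75-base windows of its principal transcript, 16.2% occur more than once within it, and Fgfr2, with at most 705 counts in a mouse, overlaps the locus on the opposite strand. How reads with several matches and overlapping genes were counted is not given in the sources used here, so the level of Dmbt1 is uncertain.

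Lyz1 (chr10:117287797-117292868, minus strand) gave few counts, and they are uncertain because a stretch of its transcript also occurs in its neighbour Lyz2. Lyz1 is known from intestinal Paneth cells, and Lyz2 from macrophages and other myeloid cells. The longest run that the 2 mature transcripts share, 118 coding bases, is longer than a read. It is shown in capitals with 20 coding bases on each side, from the GENCODE M21 transcripts (GRCm38), since a read that lies within it can be assigned to either gene only through its mate:
Lyz1: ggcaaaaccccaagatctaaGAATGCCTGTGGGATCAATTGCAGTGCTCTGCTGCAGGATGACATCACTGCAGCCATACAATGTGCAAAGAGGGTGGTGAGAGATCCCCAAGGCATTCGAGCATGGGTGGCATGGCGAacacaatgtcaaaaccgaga
Lyz2: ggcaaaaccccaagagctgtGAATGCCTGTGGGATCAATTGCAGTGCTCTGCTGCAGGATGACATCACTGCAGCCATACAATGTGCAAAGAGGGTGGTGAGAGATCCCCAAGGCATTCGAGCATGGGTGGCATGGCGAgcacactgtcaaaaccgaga
The run covers bases 306 to 423 of the principal Lyz1 transcript and 355 to 472 of that of Lyz2. The printed stretch of Lyz1 spans exons 2 to 4 (chr10:117291029-117291074, chr10:117289119-117289197 and chr10:117288617-117288649, minus strand). In all, 6.22% of the 75-base windows of the Lyz1 transcript were found in Lyz2. None of the windows of Ltf, Lpo, Car6, Pip, Dmbt1 or Bpifa2 was found in the transcripts of another gene.

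The raw counts of Lyz1 at 2M were 29, 23 and 24 in BALB/c and 68, 60 and 68 in NOD.H-2b, with no overlap (1.196 ± 0.28 on the log2 scale, adjusted p = 0.00487). At 4M, BALB/c had 54, 33 and 145 counts and NOD.H-2b 72, 162 and 104 counts. The groups overlapped through BALB/c replicate 3, and the difference was 0.55 ± 0.47 (adjusted p = 0.391), or 1.18 without that mouse (adjusted p = 0.0432). At 6M, BALB/c had 41, 51 and 25 counts and NOD.H-2b 127, 60 and 91 counts (1.10 ± 0.35, adjusted p = 0.0245). The raw counts did not overlap, but after scaling BALB/c replicate 2 (1.09 CPM) lay above NOD.H-2b replicate 2 (1.05 CPM). That call ended without BALB/c replicate 1, BALB/c replicate 3, NOD.H-2b replicate 1 or NOD.H-2b replicate 3 (adjusted p from 0.0652 to 0.0947). Lyz2 gave 675 to 3430 counts in BALB/c and 4152 to 15258 in NOD.H-2b, so Lyz1 made up only 0.637% to 4.06% of the counts of the pair. This share was lower in NOD.H-2b at each age, with no overlap. In BALB/c it was 2.10% to 3.43% at 2M, 2.30% to 4.06% at 4M and 1.83% to 3.07% at 6M. In NOD.H-2b it was 1.11% to 1.61%, 0.671% to 1.63% and 0.637% to 0.989%.

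Summed into 1 gene, Lyz1 and Lyz2 gave higher values in NOD.H-2b, with log2 fold changes of 2.27 ± 0.18 for 2M (adjusted p = 0.000298), 2.13 ± 0.31 for 4M (adjusted p = 0.00425) and 2.66 ± 0.16 for 6M (adjusted p = 1.97e-06). The pair also rose within NOD.H-2b from 2M to 6M (1.19 ± 0.11, adjusted p = 0.000394). Of 10 macrophage markers, 10 passed the test as higher in the 2M NOD.H-2b LGs and 8 at each later age (against 22.5%, 23.4% and 28.6% of all genes). None of these markers was at or under 3 counts in any group, and their summed level was 60.6 to 128 CPM in BALB/c and 184 to 287 CPM in NOD.H-2b. Their part in the lysozyme counts was not tested.

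**Figure D2:**
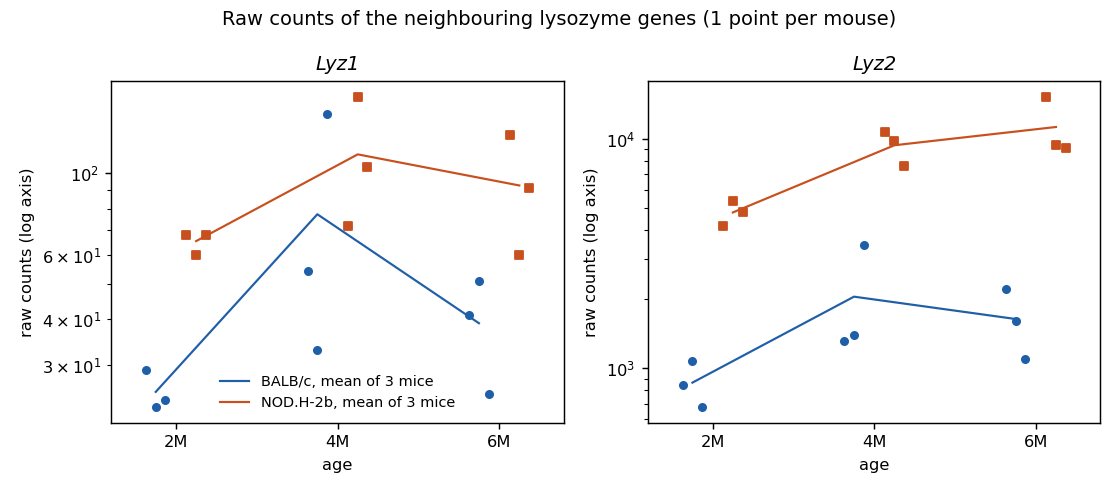
Raw counts of Lyz1 and Lyz2 in each mouse on log axes against age in months. Each point is 1 mouse, blue circles are BALB/c, orange squares are NOD.H-2b, and lines join the means of 3 mice. Lyz2 gave 675 to 15258 counts and separated the strains at every age, while Lyz1 gave 23 to 162 counts and overlapped at 4M.

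Bpifa2 (chr2:154008265-154016079, plus strand) was at or under the floor of 3 counts in every mouse. It had no count in 8 of 9 BALB/c mice and 1 count in the other, and 0 to 3 counts in NOD.H-2b mice, with 2, 3 and 2 at 6M. A level of 3 counts corresponds to at most 0.0701 CPM in any mouse, so expression below that level could not be detected, and no fold is given. Without the filter on low counts, Bpifa2 could be tested and was called higher in NOD.H-2b averaged over the ages (adjusted p = 0.0149), but not at 2M, 4M or 6M (adjusted p = 0.486, 0.304 and 0.0604). Salivary gland markers were summed as well, since Bpifa2 is abundant in the parotid. Of 15 of these genes in the table, 7 to 10 had at most 3 counts in every mouse of a group, with Smr3a, Prb1, Prpmp5, Cst10, Klk1b22 and Muc19 among them in all groups. Their summed level was 156 to 178 CPM in BALB/c and 74.8 to 108 CPM in NOD.H-2b, with no overlap, and Egf and Prol1 had the highest levels. Bulk RNA cannot tell whether such genes are read from salivary tissue or from the LG itself, so the sum is no check of the dissection. At 2M, 1 of 4 tested was lower (against 17.2% of all genes) and 0 higher (against 22.5%). At 4M, 3 of 5 were lower (against 19.2%) and 1 higher (against 23.4%). At 6M, 2 of 4 were lower (against 25.8%) and 1 higher (against 28.6%).

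The second question was how each strain changed with age. In BALB/c, Lyz1 was higher at 4M than at 2M (1 of 6, where 6.1% of all genes were called higher; 1.48 ± 0.41, adjusted p = 0.0395), and Lpo and Pip were lower (2 of 6, against 5.01%; -0.18 ± 0.047 with an adjusted p of 0.0279, and -0.18 ± 0.048 with an adjusted p of 0.028). All 3 calls were lost in a fit of all 18 mice (adjusted p from 0.0525 to 0.482) and without any 1 of the 2M BALB/c mice. They stood when the mice were scaled to a list of epithelial genes, as given below. From 4M to 6M none of the 6 genes was called in BALB/c by edgeR or DESeq2 (against 0.307% of all genes in either direction), and 3 had an unadjusted p under 0.05. From 2M to 6M none was called by either tool in BALB/c (against 5.61%), and none had an unadjusted p under 0.05.

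In NOD.H-2b, Lpo and Pip fell from 2M to 4M (2 of 6, where 5.48% of all genes were called lower). From 4M to 6M none of the 6 was called by edgeR or DESeq2, and none had an unadjusted p under 0.05. Of all genes, 0.00555% was called in either direction, which is 1 gene. From 2M to 6M, Ltf, Lpo, Car6 and Pip fell (4 of 6, against 19.4% called lower). The 4 genes fell by 0.47, 0.98, 0.78 and 0.59 on the log2 scale. Dmbt1 (-0.037 ± 0.16) and Lyz1 (0.46 ± 0.24) were not called.

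The third question was whether the strains changed differently with age, tested as strain by age on all 18 mice. From 2M to 4M none of the 6 genes was called by edgeR or DESeq2 (against 1.67% of all genes in either direction), and Ltf, Lpo and Pip had an unadjusted p under 0.05. From 2M to 6M the same 3 genes were called lower in NOD.H-2b relative to BALB/c (3 of 6, against 9.09% called lower), by edgeR and by DESeq2. Car6 (-0.68 ± 0.53), Dmbt1 (-0.028 ± 0.27) and Lyz1 (-0.094 ± 0.58) were not called. Car6 had a difference of -0.70 with an adjusted p of 0.0196 when only the 12 mice of 2M and 6M were fitted.

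The bases upstream of the start of these 3 genes are shown because they were called together. They come from RefSeq (GRCm38.p6), which held a start for 6 of the 7 genes, and cover the 100 bases before the start without those that GENCODE M21 places in an exon. Capitals mark CCAAT or TATAAA on either strand:
Ltf, chr9:111019192-111019270, plus strand: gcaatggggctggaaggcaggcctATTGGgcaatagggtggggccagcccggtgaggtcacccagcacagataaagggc
Lpo, chr11:87826115-87826214, minus strand: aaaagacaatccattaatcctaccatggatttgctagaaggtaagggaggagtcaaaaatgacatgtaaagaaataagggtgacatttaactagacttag
Pip, chr6:41847449-41847534, plus strand: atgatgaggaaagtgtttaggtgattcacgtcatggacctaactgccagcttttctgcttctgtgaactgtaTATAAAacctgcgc
The Lpo window precedes the principal transcript but lies within the annotated gene, between exons of another transcript that starts farther upstream. TATAAA was found in the window of Pip and CCAAT, on the reverse strand, in that of Ltf, and neither in that of Lpo. Among 32851 RefSeq windows of 100 bases, 5.56% held TATAAA and 18.9% held CCAAT. The 3 windows therefore shared neither motif, and these letters are a description of the sequence.

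Genes of the epithelium differed with age and strain as well. A list of 40 epithelial structure genes (such as Epcam, Cdh1 and Krt8) had a mean log2 CPM of 4.86 ± 0.034 in 2M BALB/c, 5.11 ± 0.10 at 4M and 4.88 ± 0.037 at 6M. The means of the NOD.H-2b groups, from the youngest to the oldest, were 5.10 ± 0.076, 4.83 ± 0.17 and 4.56 ± 0.14. The test called 30 of the 40 genes lower and 3 higher in 6M NOD.H-2b LGs (against 25.8% and 28.6% of all genes). In those of 2M, it called 9 lower and 15 higher (against 17.2% and 22.5%). As a sum, which its most abundant genes dominate, the list was lower in NOD.H-2b at 2M as well (3521 to 3937 CPM against 4144 to 4304 CPM in BALB/c) and stood at 2174 to 2785 CPM against 4240 to 4385 CPM at 6M. None of the 40 genes was at or under 3 counts in any group. NOD.H-2b 6M replicate 1 had the lowest mean of all mice (4.41). Of its group it had the lowest Lpo and Pip, but the highest Car6, Ltf, Dmbt1 and Lyz1. NOD.H-2b 4M replicate 1 had the lowest mean of its group (4.64) and the lowest Pip, Ltf, Car6 and Lyz1, while Lpo was lowest in replicate 2 and Dmbt1 in replicate 3. The part of the epithelial share in these levels was not tested.

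**Figure D3:**
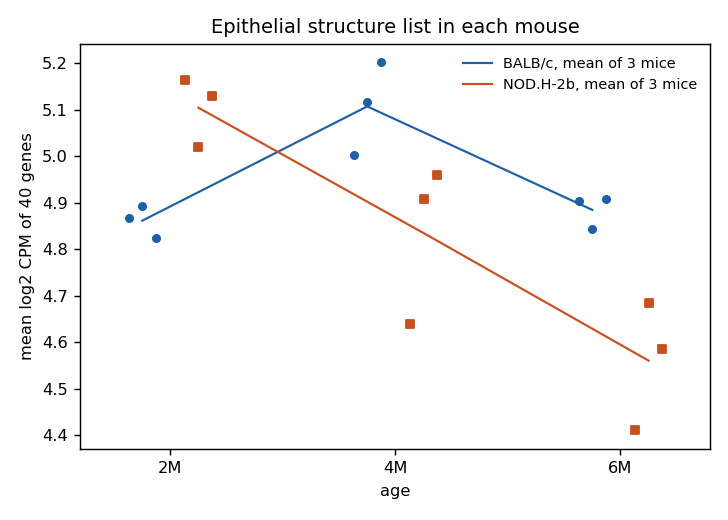
Mean log2 CPM of the 40 epithelial structure genes in each mouse against age in months (the axis does not start at 0). Each point is 1 mouse, blue circles are BALB/c, orange squares are NOD.H-2b, and lines join the means of 3 mice. The mean in NOD.H-2b went from 5.10 at 2M to 4.56 at 6M, and that in BALB/c from 4.86 to 4.88.

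When each mouse was scaled to this list instead of by TMM, the median log2 fold change of all genes shifted by -0.31 at 2M, 0.27 at 4M and 0.25 at 6M. On that scale, Car6 stayed lower at 2M, 4M and 6M (-3.19 ± 0.098, -2.68 ± 0.65 and -3.30 ± 0.22, adjusted p from 2.45e-10 to 0.0381), and so did Lpo (-0.66 ± 0.075, -0.56 ± 0.13 and -0.998 ± 0.12, adjusted p from 7.99e-06 to 0.00278). Ltf was higher at all 3 ages (0.18 ± 0.066, 0.42 ± 0.12 and 0.34 ± 0.11, adjusted p from 0.0102 to 0.0315). Pip was lower already at 2M (-0.29 ± 0.067, adjusted p = 0.00196), turning the sign of its value, not called at 4M (-0.13 ± 0.13, adjusted p = 0.45), and lower at 6M (-0.35 ± 0.071, adjusted p = 0.00157). Dmbt1 was lower at 2M (-0.61 ± 0.18, adjusted p = 0.0333) and 4M (-0.53 ± 0.15, adjusted p = 0.00795), with -0.066 ± 0.28 at 6M (adjusted p = 0.872). Lyz1 was called higher at 2M (0.89 ± 0.29, adjusted p = 0.018) and 6M (1.35 ± 0.40, adjusted p = 0.0155), as with TMM.

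Relative to the epithelial list, none of the 3 strain by age calls from 2M to 6M was kept. Lpo was at -0.34 ± 0.16 (adjusted p = 0.0952), Pip at -0.059 ± 0.11 (adjusted p = 0.704) and Ltf, with its sign turned, at 0.16 ± 0.14 (adjusted p = 0.349). Within NOD.H-2b from 2M to 6M, Lpo kept its fall on that scale (-0.44 ± 0.11, adjusted p = 0.00768), while Pip (-0.039 ± 0.072, adjusted p = 0.651), Car6 (-0.20 ± 0.21, adjusted p = 0.428) and Ltf, again with its sign turned (0.10 ± 0.11, adjusted p = 0.427), did not. From 2M to 4M in BALB/c, Lpo (-0.44 ± 0.12, adjusted p = 0.00117), Pip (-0.45 ± 0.12, adjusted p = 0.00122) and Lyz1 (1.19 ± 0.33, adjusted p = 0.00199) kept their calls. Dmbt1 was added there (0.27 ± 0.11, adjusted p = 0.0277). In NOD.H-2b over the same ages, Lpo (-0.35 ± 0.10, adjusted p = 0.0488) and Pip (-0.29 ± 0.074, adjusted p = 0.0337) kept their falls, and Lyz1 was added (1.11 ± 0.28, adjusted p = 0.0329). The calls for Car6 and Lpo between the strains thus stood on both scales at each age. Of these 2 scales, the falls of Car6, Pip and Ltf from 2M to 6M in NOD.H-2b were called only with TMM.

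**Figure D4:**
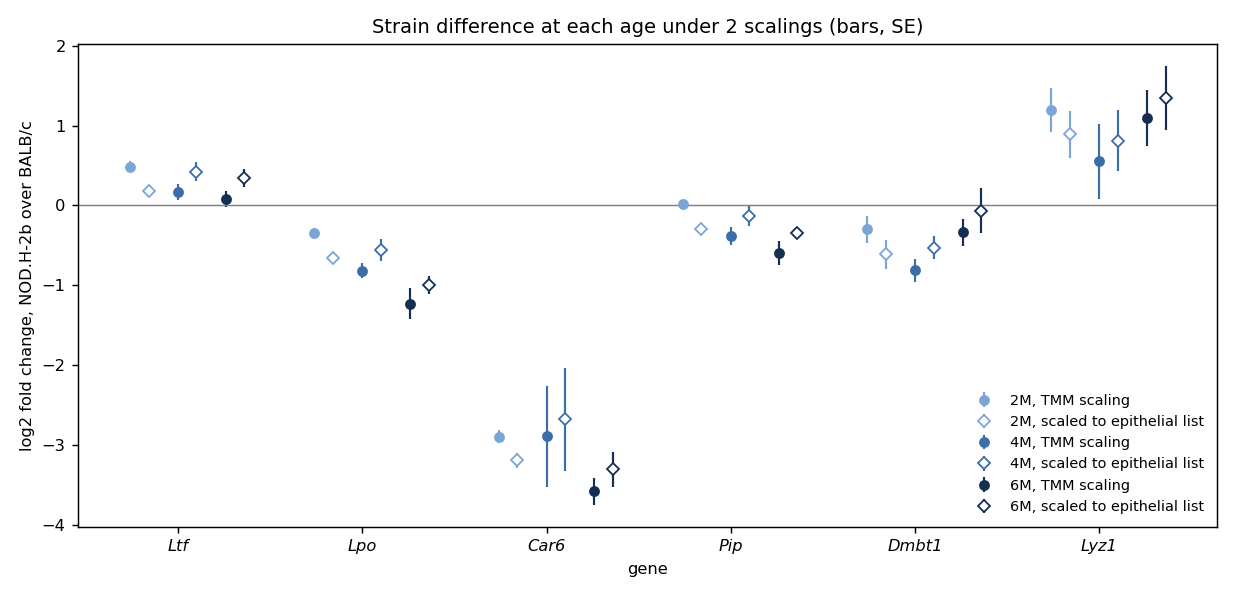
Log2 fold change of 6 genes between NOD.H-2b and BALB/c at 2M, 4M and 6M, from light to dark, with bars for the SE. Filled circles use TMM scaling and open diamonds use scaling to the 40 epithelial genes. Car6 lay between -3.58 and -2.68 on both scales, and Pip at 2M lay at 0.015 with TMM scaling and at -0.29 relative to the epithelial list.

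Markers of other cells moved with strain and age as well. The 12 acinar markers (among them Bhlha15, Xbp1, Rab3d and Aqp5) summed in BALB/c to 2410 to 2556 CPM at 2M, 2253 to 2380 CPM at 4M and 2036 to 2448 CPM at 6M. In NOD.H-2b they summed to 1924 to 2229 CPM at 2M, 1646 to 1959 CPM at 4M and 1269 to 1596 CPM at 6M, with no overlap between the strains at any age. Of the 12, 7 were lower at 2M, 9 at 4M and 11 at 6M (against 17.2%, 19.2% and 25.8% of all genes). B cell markers (10 genes) summed to 0.123 to 2.80 CPM in BALB/c and reached 270.5 to 544 CPM in 6M NOD.H-2b. T cell markers (10 genes) summed to 0.459 to 6.34 CPM in BALB/c and 84.3 to 119 CPM in 6M NOD.H-2b. In 2M BALB/c, 7 of the B cell and 4 of the T cell genes had at most 3 counts in every mouse. The part of these cell types in the levels of the tear genes was not tested.

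Among 35 other secreted defence proteins, more genes were called higher than lower. NOD.H-2b had more of 12 and less of 1 of the 18 tested at 2M, more of 10 and less of 1 of the 19 tested at 4M, and more of 11 and less of 2 of the 19 tested at 6M. Of all genes, 22.5%, 23.4% and 28.6% were called higher at these ages, and 17.2%, 19.2% and 25.8% lower, shares against which the iron, BPI fold and scavenger receptor lists are also to be read. Their median log2 fold changes were 1.37, 0.95 and 0.93. Among its 5 most abundant members, Jchain, the joining chain of secreted antibodies, was higher at each age (3.67, 1.66 and 1.68). Hp, which encodes haptoglobin, was lower at 4M (-0.56, adjusted p = 0.00107) and at 6M (-0.99, adjusted p = 8.83e-05). Pigr, which carries those antibodies across the epithelium, was higher at 2M only (2.21, adjusted p = 0.00226) and had -0.42 and -0.41 at the later ages (adjusted p = 0.069 and 0.246). Ccl28 was lower at 2M (-0.28, adjusted p = 0.00446) and 6M (-1.12, adjusted p = 0.000122) and Wfdc12, which encodes a protease inhibitor, was not called at any age.

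A list of 20 genes holds those that supply lactoperoxidase with hydrogen peroxide and thiocyanate, or remove peroxide. Of 14 tested at 2M, 5 were higher and 5 lower (against 22.5% and 17.2% of all genes). Of 15 tested later, 5 and 6 were called at 4M (against 23.4% and 19.2%), and 4 and 6 at 6M (against 28.6% and 25.8%). Ano1, a calcium-gated anion channel of secretory epithelia, was lower at each age (-0.25, -0.52 and -0.38, adjusted p from 0.00118 to 0.00502), and so were Gpx1 (-0.29, -0.27 and -0.46), Sod1 (-0.38, -0.45 and -0.31) and Sod2 (-0.38, -0.38 and -0.44). Catalase (Cat) was lower at 6M only (-0.22, adjusted p = 0.0212).

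Of 19 other carbonic anhydrases and bicarbonate transport genes, 3 of 12 tested were higher and 2 lower at 2M, near the shares over all genes (22.5% and 17.2%). At 4M, 4 and 4 of 11 were called (against 23.4% and 19.2%), and at 6M, 4 and 4 of 12 (against 28.6% and 25.8%). The sodium bicarbonate cotransporter Slc4a4 was lower at each age (-0.20, -0.48 and -0.51, adjusted p from 0.000336 to 0.0226), and Slc4a7 was higher (0.38, 0.46 and 0.73, adjusted p from 3.08e-05 to 0.00367). The mitochondrial enzyme Car5b was lower at 4M (-0.25, adjusted p = 0.0369) and 6M (-0.54, adjusted p = 0.00298).

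In the list of transferrin relatives and iron handling, 3 of 11 genes tested were higher and 3 lower at 2M, 2 and 7 at 4M, and 1 and 7 at 6M. The ferritin chains Fth1 (-0.47, -0.40 and -0.36, adjusted p from 3.4e-05 to 0.00307) and Ftl1 (-0.30, -0.38 and -0.34, adjusted p from 0.000239 to 0.00221) and the metal reductase Steap4 (-1.03, -1.39 and -1.55, adjusted p from 3.65e-07 to 2.69e-06) were lower at each age, and the transferrin receptor Tfrc at 4M and 6M (-0.36 and -0.89). Of 17 BPI fold genes, only Pltp and Lbp passed the filter at the 3 ages, and both were higher at each (Pltp 1.24, 0.75 and 1.13, Lbp 1.41, 0.83 and 1.52). Of 18 genes with scavenger receptor cysteine-rich domains, the family of Dmbt1, 7 of 14 tested were higher and 1 lower at 2M, 8 and 3 of 17 at 4M, and 6 and 1 of 16 at 6M. Lgals3bp had the largest level among them and was higher at each age (2.88, 2.50 and 2.65). Cd163, a macrophage receptor for haemoglobin with haptoglobin, was lower at 4M and 6M (-0.70 and -1.08, adjusted p = 0.00718 and 0.00351).

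The genes whose profiles lay nearest to each tear gene were ranked by the root mean square difference of centred log2 CPM over the 18 mice, among 7648 genes. For Lpo they were Mrap, Zfhx3 and Plin3, at 0.13 to 0.14 against a spread of 0.53 of Lpo itself. Mrap, the accessory protein of melanocortin receptors, was 1.38-fold, 1.68-fold and 2.37-fold lower in NOD.H-2b at the 3 ages. For Pip they were Rbm47, Crls1 and Map3k13 (0.086 to 0.094, against 0.29), and for Ltf they were Lrg1, Coq2 and Psen2 (0.083 to 0.091, against 0.20). For Car6 the nearest were Rapgef3, Dpyd and Baiap2l1 (0.48 to 0.55, against 1.66). Those nearest to Dmbt1 were Ece1, Gm22442 and Hist1h4h (0.21 to 0.22, against 0.38), and those nearest to Lyz1 were Apoe, Mmp14 and Serpinb9 (0.44 to 0.46, against 0.77). The 18 profiles share libraries, strain and cell composition, so the distances are given as a description.

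Of the nearest coding genes on the chromosome, some were called in the direction of the tear gene and others were not. Mks1, on the other side of Lpo, was lower at each age (-0.24, -0.57 and -0.72, adjusted p from 0.000895 to 0.0362). Htra1, 46393 bases from Dmbt1, was lower at each age (-0.51, -0.86 and -1.06), and so was Olfr459, 72358 bases from Pip (-1.63, -1.26 and -1.45, with 20 to 297 counts). Mpo, the myeloperoxidase gene of neutrophils, lies 2015 bases from Lpo and gave 8 to 39 counts per mouse, and it was not called at any age. Sval2 lies 924 bases from Pip and was itself abundant (1269 to 2583 CPM). It was higher in NOD.H-2b at 2M (0.54, adjusted p = 8.68e-06) and had 0.11 at 4M and -0.15 at 6M (adjusted p = 0.405 and 0.397), so the neighbours Pip and Sval2 differed in their calls at each age, and this difference between the genes was not tested. Eno1, 35389 bases from Car6, was higher at each age (0.26, 0.75 and 1.05), and Ccrl2, 11719 bases from Ltf, was higher at each age (0.56, 0.63 and 0.52).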

How the data were processed

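Total RNA of 18 LGs was depleted of ribosomal RNA and sequenced as paired 75-base reads. According to the labels and the methods, the authors removed adapters (cutadapt), mapped to GRCm38 (STAR) and deposited the HTSeq gene counts, which are raw. They also deposited log2 values (with 1 added) of counts that, by the methods, were normalized with DESeq2. These were used here only for a check. In each of the 18 columns they equalled the raw counts times a constant, which was not compared with DESeq2 size factors. The annotation release, strand setting and handling of multiply mapped reads are not given in the sources used here.

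Groups came from the labels. Names, coordinates and transcripts are those of GENCODE M21, and upstream bases those of RefSeq. Genes were filtered with filterByExpr and scaled by TMM, and edgeR 4.0.16 (R 4.3.3, limma 3.58.1) fitted robust quasi-likelihood models with Benjamini-Hochberg adjustment over all genes tested. Strains within an age and ages within a strain used the 6 mice concerned, and the averaged and strain by age contrasts used all 18. The SE was the log2 fold change divided by the square root of F. Levels between genes were compared per kb of the longest principal transcript, chosen after the exon union of Pip was seen to hold a long alternative transcript. The upstream bases and motifs shown were chosen after the results were seen.

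The genes and lists were chosen with earlier results of these data known. The text names the 7 genes, the 5 most abundant genes of each function list at most, the 3 nearest profiles and the nearest coding genes, and gives marker lists as sums. Alternatives were DESeq2 1.42.0 (size factors, Wald test), upper quartile scaling, scaling to the epithelial list, no filter, at least 10 counts in every sample, a replicate block, 1 fit of all 18 mice, 12 mice of 2 ages, Lyz1 and Lyz2 summed, and leaving out each mouse. The steps were tested on simulated data. Depth (at least 49480781 counts) limits only genes near the floor of 3 counts, which covers counting error only. Precision is otherwise set by 3 mice per group.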

Additional observations from a re-analysis of the deposited data

Results flagged for a closer look

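The change with age differed between the strains for 3 of the 6 genes tested, by the strain by age term from 2M to 6M in edgeR's fit of all 18 mice (9.09% of all genes tested were called lower). For Lpo the strain difference changed by -0.88 ± 0.19 on the log2 scale (adjusted p = 0.00651), for Pip by -0.60 ± 0.15 (adjusted p = 0.0119) and for Ltf by -0.40 ± 0.13 (adjusted p = 0.048). All 3 calls were lost when the mice were scaled to the epithelial structure list, and the cause was not tested. Groups of 3 mice are too small for a test of outlying samples, so none was made.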

How the results depend on the processing

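The 6 genes gave 72 values in 12 comparisons and 1230 values under the alternatives, of which 1151 stayed on their side of the threshold. Of these, 59 changed sign between values that were not called. A further 54 lost a call, 22 gained 1, and 3 changed sign with a call on 1 side. Scaling to the epithelial list turned Pip at 2M to -0.29 (adjusted p = 0.00196), Ltf in strain by age from 2M to 6M to 0.16 (adjusted p = 0.349) and the difference of Ltf between 6M and 2M NOD.H-2b LGs to 0.10 (adjusted p = 0.427). With it, 0 of the 6 genes were called in strain by age from 2M to 6M (3 with TMM), 2 in BALB/c from 4M to 6M (0 with TMM) and 2 between 2M and 6M NOD.H-2b LGs (4 with TMM, of which Lpo was kept, and Lyz1 was added at 1.04 with an adjusted p of 0.0106), and the cause was not tested. A fit of all 18 mice left 0 called in BALB/c from 2M to 4M. The call of Ltf in strain by age from 2M to 6M was lost with DESeq2 size factors (adjusted p = 0.0584) and with at least 10 counts in every sample (adjusted p = 0.0578). With Lyz1 and Lyz2 summed, the call in BALB/c from 2M to 4M was lost (1.15, adjusted p = 0.164).

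Mice with the same replicate number did not deviate together on average (mean correlation 0.0041 over 45 pairs, from -0.30 to 0.30), and the main fits did not pair them. A mean over all groups cannot exclude that mice of particular groups shared a step of the processing. A replicate block left 0 of the 6 genes called in BALB/c from 2M to 4M, 1 in BALB/c from 4M to 6M (Dmbt1) and 1 between 2M and 4M NOD.H-2b LGs (Lpo), and Pip at 4M had an adjusted p of 0.0575. Among all genes, the block gave 308 in place of 2799 calls for NOD.H-2b from 2M to 4M, 594 in place of 1 from 4M to 6M and 4561 in place of 7211 from 2M to 6M.

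When 1 mouse was left out, the genes called ranged from 2 to 5 at 4M, from 0 to 3 in BALB/c from 2M to 4M, from 0 to 2 in BALB/c from 2M to 6M, from 1 to 3 between 2M and 4M NOD.H-2b LGs and from 2 to 4 between 2M and 6M NOD.H-2b LGs. Of the 30 calls, 20 held without any 1 mouse, and of the 42 values not called, 33 were never called.

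Calls over all genes moved more. With the epithelial list, calls went from 3871 higher and 2966 lower to 2476 and 7797 at 2M, from 4143 and 3402 to 5285 and 1096 at 4M, from 5078 and 4575 to 6435 and 2102 at 6M, and from 6206 and 6321 to 6859 and 4264 over the ages. They went from 133 and 187 to 7689 and 75 in strain by age from 2M to 4M (121 and 272 with upper quartile scaling), and from 1345 and 1738 to 6893 and 171 from 2M to 6M. In BALB/c they went from 1015 and 834 to 699 and 6001 from 2M to 4M, and from 29 and 22 to 3870 and 34 from 4M to 6M. In NOD.H-2b they went from 1826 and 973 to 2858 and 140 from 2M to 4M, and from 3723 and 3488 to 10927 and 232 from 2M to 6M. Without a filter, BALB/c had 2934, 847 and 1925 calls from 2M to 4M, 4M to 6M and 2M to 6M (1849, 51 and 930 with it), and Bpifa2 was called in the average over ages (adjusted p = 0.0149). NOD.H-2b then had 1654 higher and 1370 lower genes from 2M to 4M and 75 calls from 4M to 6M. DESeq2 called 952 genes in strain by age from 2M to 4M. Between 4M and 6M it called 433 genes for BALB/c and 166 for NOD.H-2b. The fit of all 18 mice called 900 and 124 genes in BALB/c from 2M to 4M and from 4M to 6M, and 4348 and 747 for NOD.H-2b. Without 1 mouse, calls ranged from 114 to 487 (320 with all mice) in strain by age from 2M to 4M and from 1558 to 3608 (3083) from 2M to 6M. In BALB/c they ranged from 967 to 1656 (1849) from 2M to 4M, from 8 to 243 (51) from 4M to 6M and from 383 to 2434 (930) from 2M to 6M. For NOD.H-2b the same ranges were 557 to 2672 (2799), 0 to 305 (1) and 4628 to 7177 (7211). Precision is limited by 3 mice per group, and for Lyz1 and Bpifa2 also by their counts.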
